A study of Homo sapiens with 9 samples.

Results

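The collagen genes were described as a family in U2-OS cells, an established human osteosarcoma line, with and without overexpression of NCBP2, the subunit of the nuclear complex that holds the RNA cap. Members were the protein-coding genes whose GENCODE symbol is COL, a number, A and a number. The rule used no measured value, and it took 44 of the 60609 gene identifiers in the count tables. Of the 44 genes, 11 encode fibrillar collagens, 9 network-forming collagens, 10 FACIT collagens (fibril-associated collagens with interrupted triple helices) and 14 other collagens. RNA was sequenced after removal of ribosomal RNA in 9 libraries, 3 each (replicates A, B and C) from clone A1 and clone A4, which overexpress NCBP2, and 3 from empty-vector clones. Each vector library came from a clone of its own. All libraries share the parental line and the same medium with fetal bovine serum. Clone A1 and clone A4 are 1 clone each, and the labels do not say whether their 3 libraries were separate cultures. P-values against a clone therefore measure the spread between these libraries, which may be technical, and between the vector clones.

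Collagens are secreted or membrane-anchored proteins made of 3 chains wound into a triple helix. Fibrillar collagens are secreted as procollagens and assemble into the banded fibrils of bone, skin and cartilage after their end peptides are cut off. Type IV forms the network of basement membranes, FACIT collagens sit on the surface of fibrils, and type VI forms beaded filaments around cells. Type I, built from the products of COL1A1 and COL1A2, is the main protein of bone matrix and is the collagen that osteoblasts are known for.

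Counts on the strand of annotated genes totalled 29234022 to 50554080 per library. The labelled overexpression was visible in every library: NCBP2 lay at 298.9 to 348.4 CPM (clone A1), 456.2 to 1035 CPM (clone A4) and 90.6 to 98.4 CPM (vector; CPM, counts relative to a library's total as scaled by edgeR's TMM method). Lists of 3 values per group follow the order of replicates A, B and C. Clone A1 replicate A stood apart, with correlations of 0.937 to 0.967 with the other libraries against 0.969 to 0.989 among those 28 pairs, across genes, which are not independent. Libraries also differed in genes of high GC content, taken here from the longest annotated transcript of each gene, not the MANE Select transcript. For the 10% of protein-coding genes with the highest GC content (at least 61.1%), the median log2 deviation from a gene's mean over the 9 libraries was -0.74 in clone A1 replicate A and 0.73 in clone A4 replicate C. Among the vector libraries it was -0.08 in replicate A, 0.45 in replicate B and -0.27 in replicate C. Of the 35 collagen genes that could be tested, 14 are among these GC-rich genes. The part of this GC difference in the results below was not tested.

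The line's cell type was checked with marker lists. Of 10 osteoblast lineage markers, 6 measured over 1 CPM. RUNX2, the transcription factor that starts the osteoblast programme, lay between 182.4 and 294.0 CPM and SPARC, a matrix protein of bone, between 1398 and 2250 CPM. Markers near or at 0 were SP7 (at most 0.027 CPM), BGLAP (at most 0.024 CPM), DLX5 (at most 0.238 CPM) and IBSP (0 counts). ALPL, at 1.20 to 4.12 CPM, and SPP1, at 0.429 to 2.07 CPM, were detected in every library. Of 6 cartilage markers, 5 were over 1 CPM, among them SOX9 at 267.2 to 465.1 CPM and HAPLN1 at 401.7 to 817.5 CPM, while COMP had 0 counts. None of the 5 blood markers and 1 of the 5 endothelial markers (VWF, mean 1.05 CPM) exceeded a mean of 1 CPM. The 5 neural markers, mostly MAP2, summed to 27.7 to 58.8 CPM (clone A1), 54.6 to 72.0 CPM (clone A4) and 82.0 to 88.9 CPM (vector), with SOX10 at 0. Their part in the collagen differences was not tested.

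Collagen expression was concentrated in a few genes. By mean CPM over the 9 libraries, 6 of the 44 genes exceeded 100, 10 lay between 10 and 100, 9 between 1 and 10, and 19 at 1 or less. COL1A1 and COL12A1 together led every other member in level per kilobase of the MANE Select transcript, the scale on which different genes are compared here. Their means were 201.9 and 73.1 CPM per kilobase. COL1A1 held 25.7% to 49.1% of all collagen counts in a library and COL12A1 20.7% to 36.4%. The next were the basement membrane chains COL4A2 and COL4A1 at 24.4 and 19.5 CPM per kilobase. The fibrillar chains COL11A1, COL3A1, COL5A1 and COL5A2 followed at 14.7, 13.9, 12.6 and 12.2 CPM per kilobase, with ranges over libraries that overlap. The type VI chains COL6A3, COL6A1 and COL6A2 measured 8.92, 8.48 and 6.29 CPM per kilobase. With the length of all annotated exons in place of the MANE Select transcript, COL1A1 and COL12A1 kept ranks 1 and 2, while COL4A2 moved from rank 3 to rank 8.

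**Figure D1:**
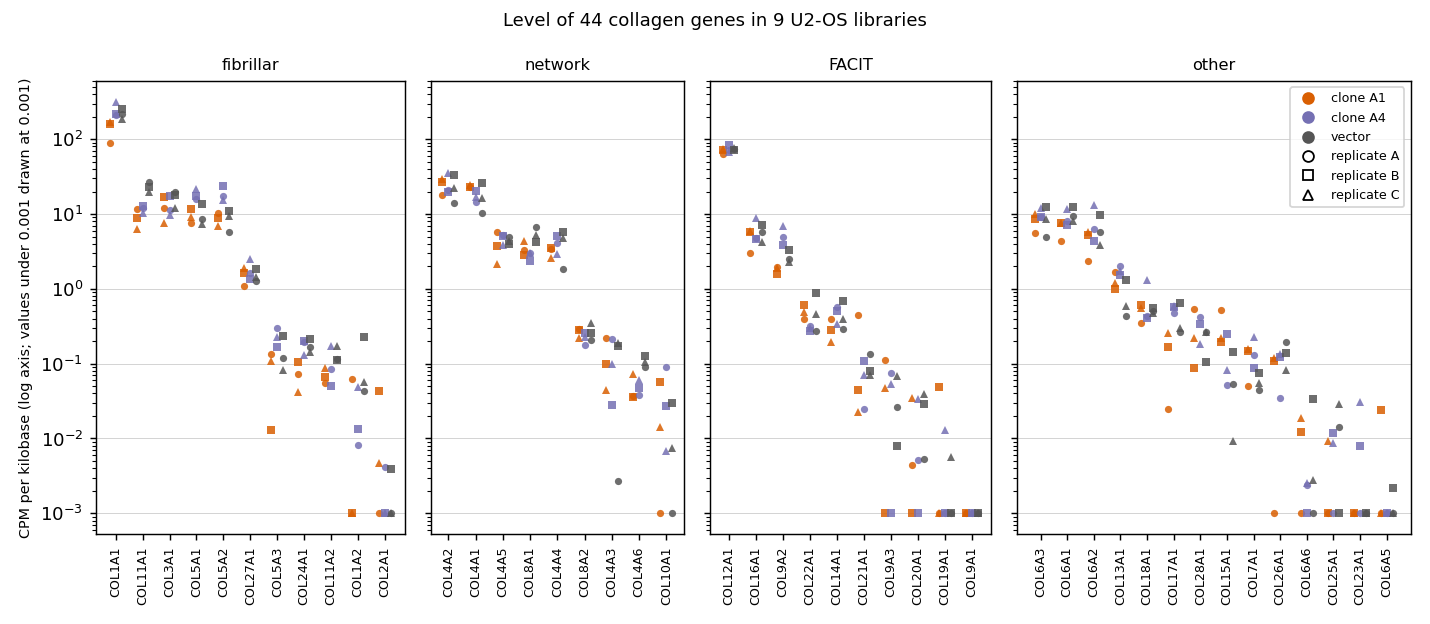
Level of each collagen gene in CPM per kilobase of the MANE Select transcript on a log axis, 1 point per library, coloured by clone A1, clone A4 and vector and grouped by collagen class. COL1A1 (mean 201.9) and COL12A1 (73.1) sit above all other members, and COL9A1 had 0 counts in every library.

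At the low end, COL9A1, a chain of the cartilage collagen type IX, had 0 counts in all 9 libraries, which allows at most 0.0585 to 0.106 CPM per library (3 counts, counting error only). A further 11 genes had 0 counts in at least 1 library. The filter on low counts kept 35 members, 10 fibrillar, 8 network, 7 FACIT and 10 other. The 9 members left out were COL2A1, COL10A1, COL9A1, COL9A3, COL19A1, COL6A5, COL6A6, COL23A1 and COL25A1. COL2A1, the main collagen of cartilage, had 0 to 8 counts per library. COL10A1, a marker of hypertrophic cartilage, had 0 to 14.

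The level of a chain was set against its partners in the same molecule, per kilobase. Type I procollagen is usually built from 2 chains of COL1A1 and 1 of COL1A2, and in these cells the partner was almost undetected. COL1A2 was covered by 9, 0 and 0 counts (clone A1), 2, 3 and 11 (clone A4), and 10, 59 and 12 (vector). Most of the vector counts came from 1 library, replicate B. Over all libraries, 472680 counts of COL1A1 stood against 106 of COL1A2, a ratio per kilobase of 3824 (95% exact binomial interval 3162 to 4671, counting error only). Without vector replicate B, left out after its values were seen, 395576 counts stood against 47, a ratio of 7218. By library the median ratio was 6558 (range 1121 to 16875), with COL1A2 set to 3 counts in the 4 libraries that held 3 or fewer.

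The abundant type V chains, COL5A1 and COL5A2, and the abundant type VI chains, COL6A1, COL6A2 and COL6A3, were set against each other in the same way. COL5A1 over COL5A2 had a median of 1.23 over the 9 libraries (range 0.737 to 1.51). COL6A1 over COL6A2, the neighbouring chains of type VI on chromosome 21, had a median of 1.45 (range 0.898 to 2.05), and the lowest ratio was in clone A4 replicate C. COL6A1 over COL6A3 had a median of 0.891 (range 0.748 to 1.91) and COL6A2 over COL6A3 0.606 (range 0.425 to 1.16). With all annotated exons as the length, the medians were 0.994 for COL5A1 over COL5A2 and 1.38 for COL6A1 over COL6A3, so the order within those pairs depends on the length used. Partners of COL11A1 were considered only within type XI as built in cartilage, where none lay at a like level. COL11A2 lay between 0.318 and 1.12 CPM, and COL2A1, whose product supplies the remaining chain there, was near 0. COL9A2 likewise stood beside a COL9A1 at 0 counts and a COL9A3 of at most 0.282 CPM.

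The 6 type IV genes lie in 3 pairs, each with start sites back to back on opposite strands. In RefSeq, the starts are 126 bases apart for COL4A1 and COL4A2 (chromosome 13). They are 418 apart for COL4A4 and COL4A3 (chromosome 2) and 379 for COL4A6 and COL4A5 (chromosome X). COL4A6 has another RefSeq start farther from COL4A5, and the nearer start was used here. The gene spans in GENCODE begin elsewhere for some of these genes, such as COL4A2 and COL4A4. Sequence from between the starts is shown because partners share it, while the levels of COL4A4 and COL4A3 and of COL4A5 and COL4A6 differ. It is from RefSeq GRCh38.p14, 5′ to 3′ on the strand of the named gene (of COL4A2 for the first pair), and leaves out every annotated exon. Capitals mark the motifs CCAAT and GGGCGG on either strand, which on the other strand read ATTGG and CCGCCC. The letters TATAAA were searched as well and are in none of these stretches.
COL4A1-COL4A2: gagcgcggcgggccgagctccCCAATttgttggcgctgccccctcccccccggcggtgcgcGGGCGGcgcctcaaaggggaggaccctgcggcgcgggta
COL4A3: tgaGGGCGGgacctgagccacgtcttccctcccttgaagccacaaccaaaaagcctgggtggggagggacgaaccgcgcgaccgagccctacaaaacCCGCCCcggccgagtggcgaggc
COL4A4: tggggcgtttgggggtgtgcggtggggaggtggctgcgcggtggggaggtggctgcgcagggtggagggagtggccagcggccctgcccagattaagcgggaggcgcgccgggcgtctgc
COL4A5: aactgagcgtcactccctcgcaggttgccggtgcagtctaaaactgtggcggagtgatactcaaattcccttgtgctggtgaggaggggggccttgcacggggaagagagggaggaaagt
COL4A6: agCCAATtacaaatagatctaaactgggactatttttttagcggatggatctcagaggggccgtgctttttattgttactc
The stretches are chr13:110307158-110307257 (plus), chr2:227164504-227164623 (plus), chr2:227164206-227164325 (minus), chrX:108439718-108439837 (plus) and chrX:108439498-108439578 (minus), in that order. In the 250 bases before the start site, CCAAT was found in 12 of 44 collagen promoters (27.3%) and in 32.0% of all 35114 promoters. GGGCGG was found in 24 collagen promoters (54.5%) and in 42.6% of all, and TATAAA in 8 (18.2%) and in 10.7% of all. These 44 promoters belong to the 32 members with an entry, and a match describes letters in a window.

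In 2 of the 3 back-to-back pairs 1 partner exceeded the other in every library. COL4A1 and COL4A2, the ubiquitous basement membrane chains, had a median ratio of 0.793 per kilobase (range 0.479 to 1.26, with both orders among the libraries, or a median of 1.06 with all exons as the length). COL4A4 exceeded COL4A3 in every library, by a median of 33.1 (range 15.6 to 225, the highest in vector replicate A, where COL4A3 was set to 3 counts). COL4A5 exceeded COL4A6 in every library too, by a median of 63.8 (range 29.1 to 157). In adult basement membranes COL4A3, COL4A4 and COL4A5 form 1 molecule together, and here only the COL4A3 chain of that trio was near the bottom, at 0.022 to 1.76 CPM. Opposite-strand counts made up 65.4% of all stranded counts at COL4A3, and without regard to strand the median ratio of COL4A4 to COL4A3 was 12.3.

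**Figure D2:**
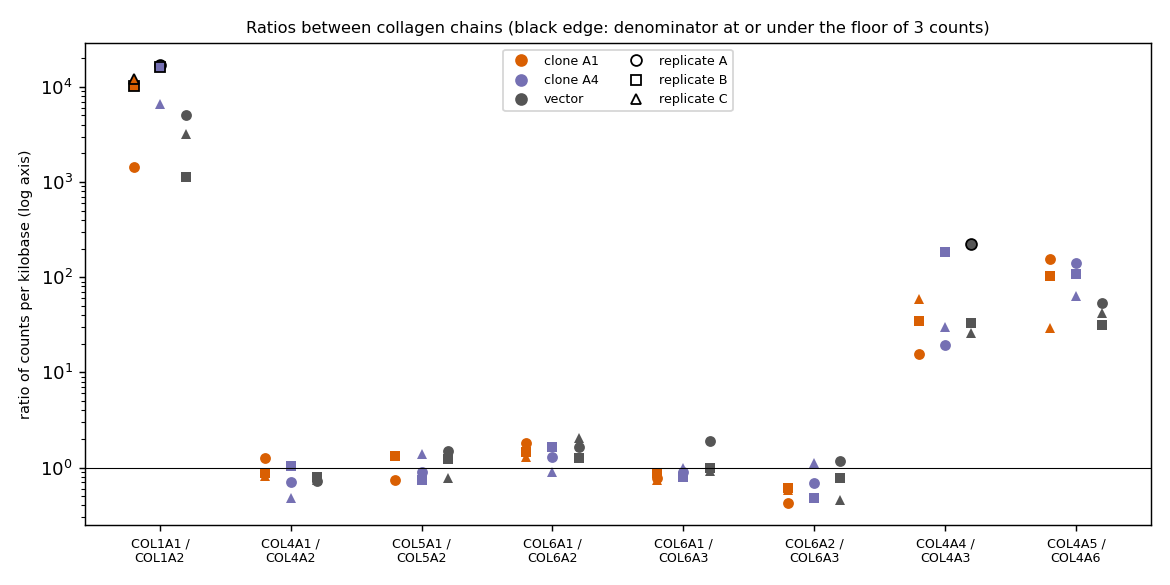
Ratio of reads per kilobase between collagen chains on a log axis, 1 point per library, for chains of 1 molecule and for back-to-back type IV pairs; black edges mark denominators of 3 counts or fewer, drawn as 3 counts. The ratios of COL5A1 to COL5A2, among COL6A1, COL6A2 and COL6A3, and of COL4A1 to COL4A2 lie between 0.425 and 2.05, while the medians of COL4A4 to COL4A3 and COL4A5 to COL4A6 are 33.1 and 63.8 and the ratio of COL1A1 to COL1A2 is at least 1121 in every library.

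Clone A1 was compared with the vector libraries first. By edgeR's quasi-likelihood test, 0 of 35 collagen genes passed a Benjamini-Hochberg adjusted p of 0.05 over all genes, where 0.0646% of the 21682 genes tested passed. At an unadjusted p under 0.05 there were 7 collagen genes against 7.51% of all genes, 1 of them higher (3.24% of all genes) and 6 lower (4.27%). Clone and vector did not overlap for 9 collagen genes, 1 higher and 8 lower, and for 14.2% of all genes. The median log2 difference was -0.22 over the collagens and -0.02 over all genes, with 9 of 35 collagens and 48.4% of all genes above 0. By class the median was -0.70 for fibrillar, -0.12 for network, -0.22 for FACIT and -0.06 for other collagens. At an adjusted p of 0.05, DESeq2, voom with library weights and edgeR without a count filter each called 1 collagen gene, COL11A1, where they called 1.26%, 1.30% and 0.827% of all genes they tested.

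COL11A1 (ENSG00000060718.22, chromosome 1, 102876467 to 103108872, minus strand, GRCh38) encodes the type XI chain that sits inside fibrils and helps set their width. It measured 86.7, 65.6 and 46.7 CPM in clone A1 and 197.9, 169.1 and 143.6 CPM in the vector libraries. All libraries of the clone lay below all vector libraries, with means of 66.3 ± 20.0 and 170.2 ± 27.2 CPM (SD, n = 3 each). The log2 difference was -1.36 (SE 0.225), with an edgeR unadjusted p of 5.37e-05 and an adjusted p of 0.0607, so it did not pass. The adjusted p was under 0.05 in 7 of 17 alternatives, over a range of 4.5e-07 to 0.313. The GC content of COL11A1 is 47.3%, outside the GC-rich genes. The 40 tested genes nearest to it on the chromosome had a median log2 difference of 0.18. Its promoter is shown because this is the member closest to the threshold (RefSeq GRCh38.p14, chr1:103108523-103108772, minus strand, capitals as above). The stretch lies before the RefSeq start but inside the gene span given above, which is from GENCODE.
COL11A1: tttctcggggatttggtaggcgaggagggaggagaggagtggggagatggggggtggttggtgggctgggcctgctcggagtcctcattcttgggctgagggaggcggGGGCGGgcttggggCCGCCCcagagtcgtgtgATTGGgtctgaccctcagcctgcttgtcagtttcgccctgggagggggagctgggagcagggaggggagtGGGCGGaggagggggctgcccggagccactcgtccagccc

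COL1A1 (ENSG00000108821.13, chromosome 17, 50184101 to 50201632, minus strand), the main chain of bone collagen, measured 532.2, 949.7 and 992.4 CPM in clone A1 and 1271, 1505 and 1090 CPM in the vector libraries. The groups did not overlap, and clone A1 replicate A was lowest by far. The log2 difference was -0.64 (SE 0.243, edgeR p 0.0207, adjusted p 0.522). COL1A1 has a GC content of 61.5%, among the GC-rich genes, which were low in that same library. The 40 tested genes nearest to COL1A1 had a median log2 difference of -0.38, with 9 of them above 0 and 7 at an unadjusted p under 0.05.

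The other members under an unadjusted p of 0.05 were of lower level. COL8A1, a short-chain network collagen of vessel walls and cornea, measured 18.0, 15.7 and 24.2 CPM in clone A1 and 37.3, 23.5 and 29.4 CPM in the vector libraries, which overlap in 1 pair (log2 difference -0.64, SE 0.242, edgeR adjusted p 0.529). COL6A1 measured 18.1, 31.6 and 31.9 CPM against 40.1, 51.7 and 33.6 CPM, with no overlap (-0.62, SE 0.273, edgeR adjusted p 0.647). The fibrillar chain COL24A1 measured 0.493, 0.726 and 0.282 CPM against 1.13, 1.44 and 0.976 CPM, with no overlap (-1.24, SE 0.554, edgeR adjusted p 0.650). All these were lower in clone A1, as was COL17A1, the transmembrane collagen of epithelial hemidesmosomes. It measured 0.141, 0.941 and 1.46 CPM against 1.47, 3.65 and 1.66 CPM (-1.39, SE 0.637, edgeR adjusted p 0.664). The COL17A1 difference was -0.72 with voom and -2.03 without clone A1 replicate C. The 7 epithelial markers summed to 5.49 to 6.40 CPM in clone A1 and 9.22 to 11.4 CPM in the vector libraries. They did not move together. By mean, CDH1, KRT5 and KRT14 were lower in clone A1, while EPCAM (3.30 against 2.66 CPM) and ESRP1 (0.783 against 0.584 CPM) were higher. KRT19 and GRHL2 were at or near 0 throughout, and the part of these markers in the COL17A1 difference was not tested. COL15A1, a basement membrane collagen that carries sugar chains, was the 1 member on the higher side, at 2.71, 1.02 and 1.15 CPM against 0.282, 0.742 and 0.049 CPM (2.16, SE 0.90, edgeR adjusted p 0.610). The COL15A1 difference was 3.25 without vector replicate B.

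**Figure D3:**
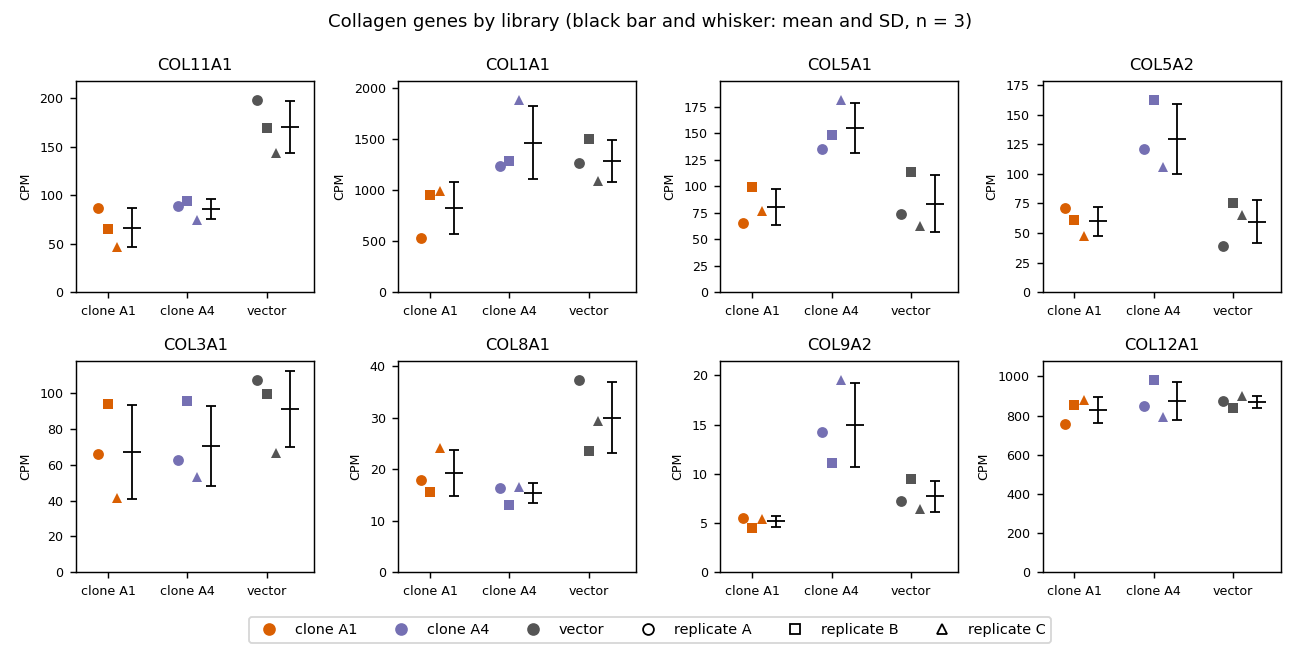
CPM of 8 collagen genes by library in clone A1, clone A4 and vector, with points shaped by replicate and black bars for the mean and SD of 3 libraries; each axis starts at 0. COL11A1 and COL8A1 have their highest mean in the vector libraries, COL5A1, COL5A2 and COL9A2 in clone A4, and COL12A1 stays between 754.6 and 979.5 CPM in all 9 libraries.

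Clone A4 was compared with the same vector libraries, so the 2 comparisons with vector share their controls. By edgeR's test, 0 of 35 collagen genes passed an adjusted p of 0.05 (0.115% of all genes). At an unadjusted p under 0.05 there were 7 (5.25% of all genes), 5 higher (2.50%) and 2 lower (2.75%). Clone and vector did not overlap for 8 collagen genes, 5 higher and 3 lower, and for 12.1% of all genes. The median log2 difference was 0.04 over the collagens and 0.03 over all genes. By class it was 0.10 for fibrillar, -0.06 for network, 0.01 for FACIT and 0.46 for other collagens. DESeq2 called 3 of the 32 collagen genes it gave an adjusted p, COL11A1, COL5A2 and COL8A1 (0.988% of all genes). Voom with library weights called 6 of 35 (0.987% of all genes), which were these 3 and COL5A1, COL9A2 and COL13A1. EdgeR without a count filter called 3 of 43, COL11A1, COL5A1 and COL5A2 (0.432% of all genes).

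The 2 type V chains, which form fibrils together with type I and start their assembly, were both on the higher side. COL5A2 (ENSG00000204262.14, chromosome 2, 189031898 to 189225312, minus strand) measured 120.7, 162.1 and 105.4 CPM in clone A4 against 39.3, 75.0 and 64.8 CPM. The groups did not overlap, with means of 129.4 ± 29.3 and 59.7 ± 18.4 CPM (SD, n = 3 each). The log2 difference was 1.12 (SE 0.258, edgeR p 0.000933, adjusted p 0.233). COL5A1 (ENSG00000130635.15, chromosome 9, 134641803 to 134844843, plus strand) measured 134.8, 148.6 and 181.0 CPM against 73.4, 113.6 and 62.7 CPM, again with no overlap. Its log2 difference was 0.89 (SE 0.239, edgeR p 0.00271, adjusted p 0.374). Genes near both chains were higher in clone A4 as well. The 40 tested genes nearest to COL5A1 had a median log2 difference of 0.59, with 38 above 0 and 13 at an unadjusted p under 0.05. Around COL5A2 the median was 0.45, with 35 above 0 and 8 under that p. The part of the chromosome region in either difference was not tested. The COL5A1 promoter is shown beside that of COL11A1 (RefSeq GRCh38.p14, chr9:134641553-134641802, plus strand), since these fibrillar members lay on opposite sides of the vector libraries in this clone.
COL5A1: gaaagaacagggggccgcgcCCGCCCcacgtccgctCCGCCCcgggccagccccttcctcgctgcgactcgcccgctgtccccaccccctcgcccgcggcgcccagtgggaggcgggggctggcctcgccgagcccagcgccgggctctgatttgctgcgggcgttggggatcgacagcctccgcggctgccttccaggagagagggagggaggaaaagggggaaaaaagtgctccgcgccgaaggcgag

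COL11A1 lay on the lower side in clone A4 too, at 88.7, 94.4 and 74.8 CPM, below every vector library. The log2 difference was -0.99 (SE 0.223, edgeR p 0.000804, adjusted p 0.221). COL8A1 measured 16.4, 13.1 and 16.6 CPM, also below every vector library, a log2 difference of -0.96 (SE 0.243, edgeR adjusted p 0.308). The genes around COL11A1 and COL8A1 had medians of 0.07 and 0.01, neither in the direction of its collagen. COL3A1, the fibrillar collagen of vessels and skin that lies beside COL5A2, measured 62.5, 95.6 and 53.2 CPM in clone A4 against 106.9, 99.1 and 66.8 CPM, with overlap (-0.37, SE 0.304, edgeR adjusted p 1).

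A further 3 genes of lower level completed the set under an unadjusted p of 0.05. COL9A2, the FACIT chain of cartilage fibrils, measured 14.2, 11.1 and 19.5 CPM in clone A4 against 7.21, 9.46 and 6.44 CPM (log2 difference 0.95, SE 0.279, edgeR adjusted p 0.473). The transmembrane collagen COL13A1 measured 6.34, 4.87 and 5.37 CPM against 1.37, 4.16 and 1.85 CPM (1.16, SE 0.419, edgeR adjusted p 0.686). The COL13A1 difference was 1.78 both with voom and without vector replicate B. COL7A1, which forms the anchoring fibrils under epithelia, measured 1.22, 0.819 and 2.11 CPM against 0.412, 0.683 and 0.512 CPM (1.36, SE 0.611, edgeR adjusted p 0.929). All of them were higher in every clone A4 library than in every vector library. COL4A6 was the other non-overlapping member, at 0.252, 0.318 and 0.403 CPM against 0.607, 0.839 and 0.708 CPM, with an unadjusted p of 0.151.

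The 2 clones were then compared with each other, which asks how far collagen levels differ between cells that carry the same transgene. By edgeR's test, 0 of 35 collagen genes passed an adjusted p of 0.05 (0.161% of all genes). NCBP2, higher in every clone A4 library than in any of clone A1, did not pass either (edgeR adjusted p 0.0764). At an unadjusted p under 0.05 there were 6 (6.63% of all genes), all higher in clone A4 (3.81% of all genes), and 0 lower (2.82%). The clones did not overlap for 9 collagen genes, 7 higher and 2 lower in clone A4, and for 13.6% of all genes. The median log2 difference was 0.31 over the collagens and 0.04 over all genes. All 10 fibrillar genes tested were above 0, as were 9 of 10 other collagens and 53.2% of all genes. The fibrillar genes include COL3A1 at 0.07 (SE 0.304) and the almost undetected COL1A2 at 0.25 (SE 1.53). The fibrillar median was 0.68, while the medians of network, FACIT and other collagens were -0.05, 0.08 and 0.40. The fibrillar median stayed between 0.52 and 0.87 over 17 alternatives. DESeq2 called 3 of 35 collagen genes, COL5A1, COL5A2 and COL9A2 (1.14% of all genes), and voom 2, COL5A2 and COL9A2 (0.669%). EdgeR without a count filter called 4 of 43, COL1A1, COL5A1, COL5A2 and COL9A2 (0.612%).

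**Figure D4:**
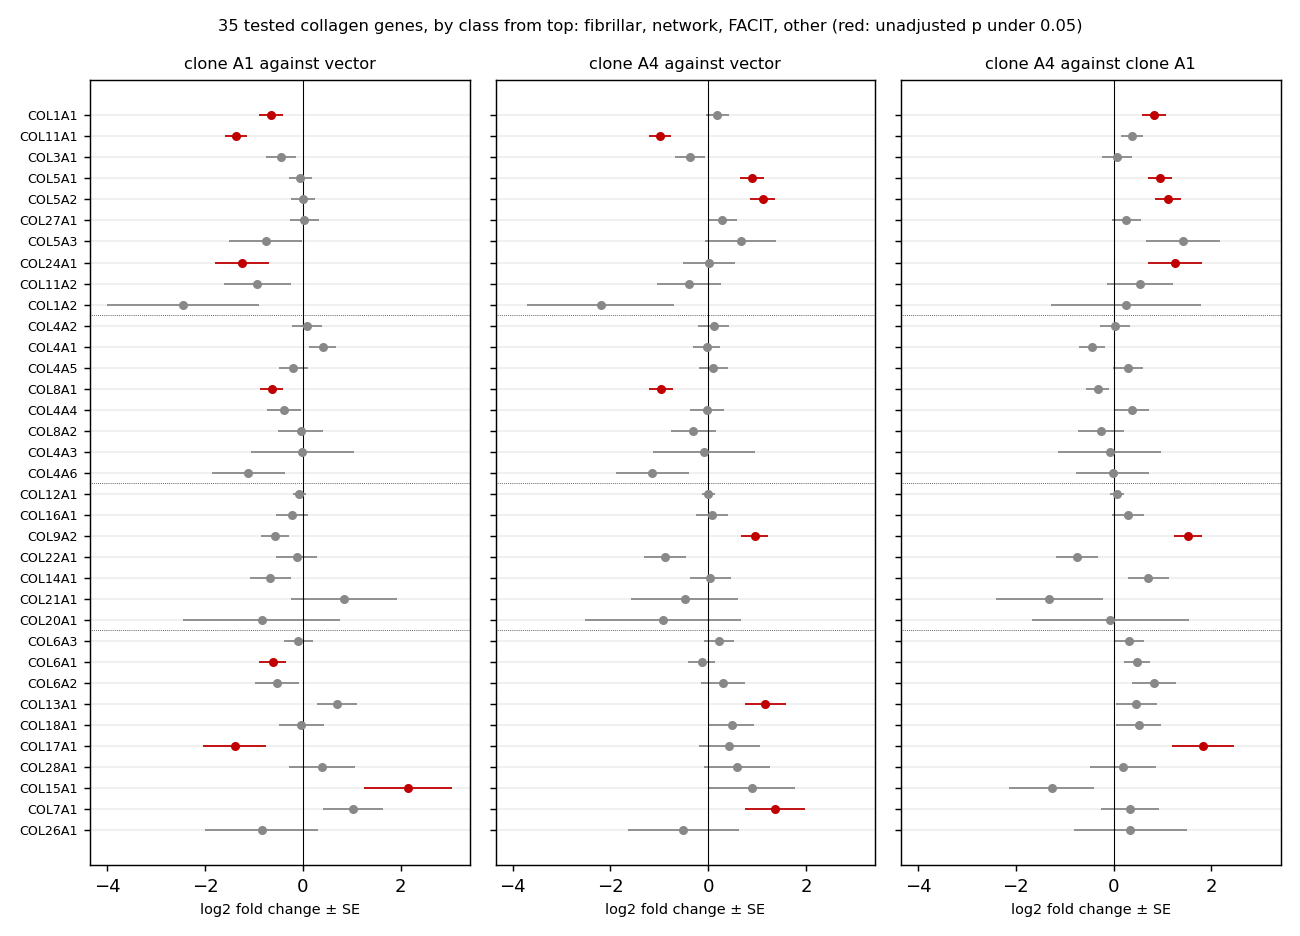
Log2 fold change with its standard error for each of the 35 tested collagen genes in the comparisons of clone A1 with vector, clone A4 with vector and clone A4 with clone A1, grouped by class. None passed an adjusted p of 0.05 in edgeR's test. Between clone A4 and clone A1, all 10 fibrillar genes lie above 0, as do 9 of 10 other collagens and 53.2% of all genes.

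COL9A2 (ENSG00000049089.15, chromosome 1, 40300489 to 40317813, minus strand) was the closest to the threshold between the clones. It measured 5.56, 4.54 and 5.46 CPM (clone A1) and 14.2, 11.1 and 19.5 CPM (clone A4), with means of 5.19 ± 0.559 and 14.9 ± 4.25 CPM (SD, n = 3 each). Every clone A4 library was at least 11.1 CPM and no clone A1 library exceeded 5.56 CPM, with the vector libraries between them at 6.44 to 9.46 CPM. The log2 difference was 1.53 (SE 0.284, edgeR p 0.000158, adjusted p 0.0761). It passed without vector replicate B, the library with the highest level among the vector clones. Its GC content of 64.8% puts it among the GC-rich genes, and clone A4 replicate C, where those were high, gave the highest value. The 40 genes nearest to it had a median log2 difference of -0.15. With clone A1 replicate A and clone A4 replicate C both left out, the sign was kept. The exon-free part of its promoter window is shown because no other member differed between the clones with a smaller p (RefSeq GRCh38.p14, chr1:40317389-40317536, minus strand). This stretch too lies before the RefSeq start but inside the GENCODE gene span given above.
COL9A2: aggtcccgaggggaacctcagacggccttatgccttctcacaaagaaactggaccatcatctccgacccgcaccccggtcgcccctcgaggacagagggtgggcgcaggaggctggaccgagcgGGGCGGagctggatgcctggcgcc

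Both type V chains separated the clones. COL5A2 measured 71.3, 61.0 and 47.3 CPM in clone A1, below all clone A4 libraries, a log2 difference of 1.11 (SE 0.258, edgeR adjusted p 0.222). COL5A1 measured 65.0, 98.9 and 76.8 CPM in clone A1, also with no overlap (0.95, SE 0.239, edgeR adjusted p 0.271). Against vector, clone A1 differed by 0.00 for COL5A2 and -0.05 for COL5A1, although the 40 genes around COL5A2 had a median of 0.47 in that comparison. Between the clones the neighbours of COL5A2 had a median of -0.04, and those of COL5A1 one of 0.37. COL5A3, the third type V chain, lay at 0.081 to 0.845 CPM in clone A1 and 1.02 to 1.85 CPM in clone A4 (1.42, SE 0.751, edgeR adjusted p 0.788).

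COL1A1 measured 1238, 1284 and 1883 CPM in clone A4, above all libraries of clone A1, a log2 difference of 0.83 (SE 0.243, edgeR p 0.00492, adjusted p 0.359). The highest value was in clone A4 replicate C and the lowest, 532.2 CPM, in clone A1 replicate A, which are the libraries at the ends of the GC-rich level. The difference ranged from 0.37 to 0.99 over the 17 alternatives and kept its sign. COL24A1 measured 1.32, 1.37 and 0.896 CPM in clone A4 (1.25, SE 0.555, edgeR adjusted p 0.730), with no overlap. COL17A1 measured 2.69, 3.23 and 3.27 CPM (1.83, SE 0.642, edgeR adjusted p 0.549), with no overlap either and a difference of 2.47 without clone A1 replicate C. On the lower side in clone A4 were COL4A1, at 95.2, 134.1 and 109.2 CPM against 148.8, 152.5 and 158.8 CPM in clone A1 (-0.44, SE 0.273, edgeR adjusted p 0.810), and COL22A1, at 1.75 to 2.01 CPM against 2.53 to 3.84 CPM. COL4A2 did not follow its partner, at 133.2, 128.0 and 224.9 CPM against 116.1, 171.6 and 191.2 CPM, with a log2 difference of 0.02 (SE 0.308).

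The 6 NCBP2 libraries together were compared with the 3 vector libraries in a fit of 2 groups. This fit takes the 6 libraries as 6 samples although they come from 2 clones, so its p-values treat libraries of 1 clone as independent. By edgeR's test, 0 of 35 collagen genes passed an adjusted p of 0.05 (0.0184% of all genes). The overexpressed gene NCBP2 did not pass either, with a log2 difference of 2.50 (SE 0.407, edgeR adjusted p 0.123). A count of 0 in this fit therefore does not show that collagen levels were unchanged. At an unadjusted p under 0.05 there were 4 (5.71% of all genes), 2 higher (2.75%) and 2 lower (2.96%). Arms did not overlap for 2 collagen genes, COL11A1 and COL4A6, both lower with NCBP2, and for 3.74% of all genes. COL11A1 had a log2 difference of -1.16 (SE 0.200, edgeR p 5.80e-05, adjusted p 0.123) and was lower in 6 of 6 libraries than in any vector library. COL8A1 had a difference of -0.79 (SE 0.212, edgeR adjusted p 0.451), with 1 clone A1 library above the lowest vector library. COL13A1 and COL7A1 were on the higher side, the former by 0.95 (SE 0.383, edgeR adjusted p 0.773) and the latter by 1.20 (SE 0.538, edgeR adjusted p 0.847), each with overlap. Without vector replicate B the COL13A1 difference was 1.56. The median was -0.06 over the collagens and 0.02 over all genes. DESeq2 called COL11A1 among 30 collagen genes with an adjusted p (0.604% of all genes), edgeR without a count filter called it among 43 (0.0530%), and voom called COL11A1 and COL8A1 among 35 (0.945%). With counts summed per clone, which leaves 2 clones against 3, edgeR called 0 collagen genes and 0 of all 22044 genes tested.

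The level of COL12A1 varied little between groups. COL12A1, the FACIT collagen of dense connective tissue, averaged 829 ± 66.2 CPM (clone A1), 873 ± 95.6 CPM (clone A4) and 870 ± 30.7 CPM (vector), each as the SD of 3 libraries. Its log2 difference was -0.07 (SE 0.139) in clone A1 and 0.01 (SE 0.139) in clone A4, both against vector, and 0.08 (SE 0.139) between the clones. These standard errors were the smallest among the members. COL4A2, COL6A3 and COL27A1 had larger spreads, with differences from vector between -0.09 and 0.29 and standard errors of 0.298 to 0.308. COL6A3 ranged from 52.6 to 129.8 CPM among the vector clones alone, and COL4A4 from 18.2 to 57.0 CPM, in both cases with replicate A lowest and replicate B highest. COL16A1, a FACIT collagen, lay at 16.1 to 47.2 CPM and COL4A5 at 14.01 to 37.8 CPM, with both ends within the NCBP2 clones. COL14A1, a FACIT collagen too, lay at 1.55 to 5.52 CPM.

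As a share of gene counts, all collagens together made up 0.249% ± 0.0411 (SD, n = 3) for clone A1, 0.348% ± 0.0529 (SD, n = 3) for clone A4 and 0.313% ± 0.0452 (SD, n = 3) for vector. The fibrillar class accounted for most of the spread. It held 0.0808% to 0.129% of gene counts (clone A1), 0.169% to 0.247% (clone A4) and 0.141% to 0.201% (vector). Clone A1 thus lay below both other groups, with COL1A1 the largest contributor. The FACIT class was steadier, at 0.0859% ± 0.00841, 0.0944% ± 0.00489 and 0.0907% ± 0.000822. Network collagens made up 0.0388%, 0.0372% and 0.0367% and other collagens 0.0138%, 0.0193% and 0.0164%. In these bulk libraries, fewer cells with collagen RNA and less collagen RNA per cell cannot be told apart.

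**Figure D5:**
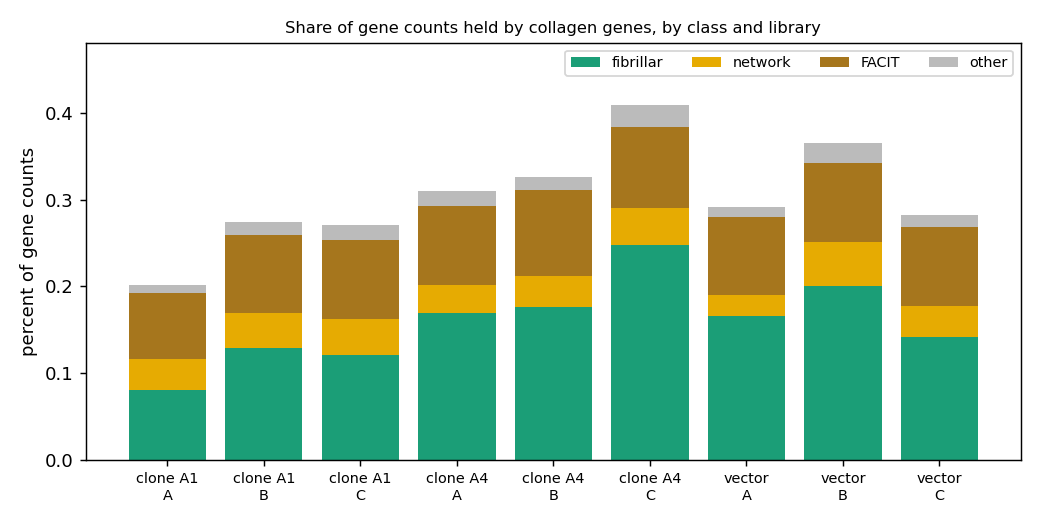
Share of gene counts held by fibrillar, network, FACIT and other collagens in each of the 9 libraries, in percent. The fibrillar share is lowest in clone A1 (0.0808% to 0.129%) and highest in clone A4 (0.169% to 0.247%), while the FACIT share lies between 0.0762% and 0.100% in all groups.

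Genes that modify, export, cut, link, bind or degrade collagen were examined as 7 lists, of which 0 genes rose and 0 fell at an adjusted p of 0.05 in any of the 4 comparisons by edgeR's test. The counts below are at an unadjusted p under 0.05, where the shares of all genes were 3.24% higher and 4.27% lower in clone A1 against vector, 2.50% and 2.75% in clone A4 against vector, 3.81% and 2.82% in clone A4 against A1, and 2.75% and 2.96% in the NCBP2 libraries together against vector. All 15 genes of prolyl and lysyl modification were tested, with 0 in clone A1 against vector, 2 higher in clone A4 against vector (2.50% of all genes), 4 higher in clone A4 against A1 (3.81%) and 1 higher in the NCBP2 libraries together (2.75%). PPIB, the prolyl isomerase of the endoplasmic reticulum and the most abundant of them per kilobase, measured 139.4, 199.8 and 209.3 CPM (clone A1), 236.0, 213.5 and 218.1 CPM (clone A4) and 244.4, 253.2 and 144.7 CPM (vector), where the vector libraries overlap both clones. P3H2, a prolyl 3-hydroxylase, came closest to the threshold and is named after its values were seen. It measured 40.7, 46.8 and 44.4 CPM in clone A4 against 21.0, 23.5 and 18.8 CPM in the vector libraries, a log2 difference of 1.06 (SE 0.180, edgeR adjusted p 0.0526), and 22.8, 25.5 and 26.3 CPM in clone A1.

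The other lists gave few genes under an unadjusted p of 0.05. Of the 8 chaperone and export genes there was 1, with more in clone A4 than in A1 (3.81% of all genes). SERPINH1, the collagen chaperone HSP47, measured 84.95, 147.1 and 171.9 CPM (clone A1), 216.0, 155.5 and 281.7 CPM (clone A4) and 184.5, 222.7 and 129.8 CPM (vector). Its ends, like those of COL1A1, were clone A1 replicate A and clone A4 replicate C. Of the 10 propeptide processing genes 7 were tested, with 1 lower in clone A1 against vector (4.27% of all genes) and 1 with more in clone A4 than in A1 (3.81%). PCOLCE, the enhancer of procollagen C-proteinase, ranged from 4.96 to 22.7 CPM between the same libraries. All 5 cross-linking genes were tested with 0 under that p in any comparison. LOXL4, a lysyl oxidase, lay at 90.01 to 204.1 CPM.

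Among receptors and uptake genes, 10 of 11 were tested. Under that p, 1 was lower in clone A1 (4.27% of all genes), 1 was higher (2.50%) and 2 lower (2.75%) in clone A4, and 3 were lower in the NCBP2 libraries together (2.96%), all against vector. Between clones 1 was higher (3.81%) and 2 lower (2.82%) in clone A4. ITGB1, the beta chain of the collagen-binding integrins, lay at 1059 to 1632 CPM. Of 12 degradation genes 9 were tested, with 1 lower in each comparison with vector (4.27%, 2.75% and 2.96% of all genes for clone A1, clone A4 and both) and 1 with more in clone A4 than in A1 (3.81%). TIMP1, an inhibitor of matrix metalloproteinases, lay at 59.1 to 256.6 CPM, again with those libraries at the ends. Of 10 collagen-binding matrix proteins 7 were tested, with 1 lower in clone A4 against vector (2.75% of all genes) and 2 lower than in clone A1 (2.82%). SPARC, which binds collagen in bone, was the most abundant gene of the lists per kilobase, at 500.2 CPM per kilobase.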

How the data were processed

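Total RNA of 9 U2-OS libraries was isolated on Direct-zol columns and prepared with the KAPA RNA HyperPrep kit after ribosomal RNA depletion, per the labels' protocols. The labels' molecule entry reads polyA instead. The submitters' processing notes name STAR 2.7.1a and GRCh38. The annotation used for counting is not given in the sources used here. The authors deposited raw counts per gene, as whole numbers without normalization, in columns for both strands and for each strand. Column 3, which held most stranded counts, was taken from its values as the strand of the gene, and column 4 held 5.51% to 6.42% of stranded counts. Totals at the head of each table that belong to no gene (4 lines, 44.5% to 63.6% of reads) were left out. Multimapping reads (6.80% to 16.3% of all reads) are not in the counts. Symbols and coordinates are from GENCODE release 44 (60295 of 60609 identifiers matched without version, all 44 members among them, 20 with the same version).

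Counts were tested with edgeR 4.0.16 in R 4.3.3 (quasi-likelihood, robust, filterByExpr, TMM) over 21682 genes, with Benjamini-Hochberg adjustment over all of them and a threshold of 0.05. One fit had 3 groups for the comparisons of clones and a second had 2 groups for the NCBP2 libraries together. CPM used TMM-scaled library sizes, and levels between genes were divided by MANE Select length. Each library counted as 1 sample. No 2 libraries of a group agreed within sampling noise (lowest chi-square per degree of freedom 28.9). That does not show that the libraries of 1 clone are independent, since differences in preparation can give it too. Alternatives were DESeq2 1.42.0, DESeq2 scaling, voom with library weights (limma 3.58.1), no count filter, counts without strand, the compared libraries alone, the replicate letter as a block, counts summed per clone, each library left out, and, added after seeing the data, both libraries extreme in GC-rich genes left out and exonic length. The scripts were tested on simulated data. Named genes were all collagens under an unadjusted p of 0.05, up to 5 per class with the highest level per kilobase, fixed chain pairs, and list genes past the threshold or else the most abundant of each list. Members and lists were chosen with earlier results of these data known. Depth limits members under about 1 CPM, and intervals cover counting error only. The labels give no batch.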

Additional observations from a re-analysis of the deposited data

Results flagged for a closer look

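In the 6 NCBP2 libraries, 2 of 29 collagen levels examined had 1 library far from the others, both in clone A4 replicate C. COL6A2 measured 45.5 CPM there, with the next library at 21.7 CPM and the lowest at 8.16 CPM. The gap was 0.638 of the whole range, above Dixon's 95% critical value for 6 samples. COL18A1, the basement membrane collagen that gives rise to endostatin, measured 7.01 CPM there, with the next library at 3.31 CPM and the lowest at 1.87 CPM, a gap of 0.720 of the range. Chance flags about 1 in 20 groups. The longest transcripts of both genes are rich in GC (66.4% and 67.2%). The same library had the highest level of GC-rich genes, whose part in these 2 values was not tested.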

How the results depend on the processing

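The number of collagen genes past an adjusted p of 0.05 was 0 in all 4 comparisons with edgeR's test, and shares of all genes called are given in parentheses. For clone A1 against vector it was 1 with DESeq2 (1.26%), voom (1.30%), no count filter (0.827%), counts without regard to strand (0.0716%), the replicate block (0.175%) and both GC-extreme libraries left out (0.0576%). With single libraries left out it was 0 to 1, and 1 without clone A1 replicate A (0.0522%). For clone A4 against vector it was 3 with DESeq2 (0.988%), 6 with voom (0.987%), 3 without a filter (0.432%) and 1 with the replicate block (0.244%). Between the clones it was 3 with DESeq2 (1.14%), 2 with voom (0.669%) and 4 without a filter (0.612%), and 0 to 1 with single libraries left out, the 1 being COL9A2 without vector replicate B (0.245%). For the NCBP2 libraries together it was 1 with DESeq2 (0.604%), 2 with voom (0.945%), 1 without a filter (0.0530%) and 1 with the replicate block (0.0600%). The cause of these changes was not tested. Each of the 24 collagen differences under an unadjusted p of 0.05 kept its sign in 17 of 17 alternatives, and the signs of other differences were not examined. The fibrillar median ranged from -0.88 to -0.44 in clone A1, and from -0.04 to 0.24 in clone A4, both against vector. COL4A4 over COL4A3 fell from a median of 33.1 to 12.3 without regard to strand. Same-letter libraries had correlations of deviations between -0.360 and 0.464, and different-letter libraries between -0.586 and 0.504. All pairs of replicate A libraries were positive (0.338 to 0.464), while those of replicates B and C had both signs. These values do not settle whether the letters pair the samples. Members below about 1 CPM, such as COL4A6 and COL24A1, rest on at most 43 and 74 counts per library, which limits the precision of their differences.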

Other observations

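At 6 members, counts on the opposite strand outnumbered those on the strand of the gene. COL6A6 had 29 counts over the 9 libraries on its own strand and 1401 on the other (98.0%), and COL20A1 had 54 and 919 (94.5%), with no annotated gene whose exons overlap theirs on the opposite strand. COL10A1 had 34 and 1085 (97.0%), and NT5DC1, which measured 29.7 CPM, overlaps it on the opposite strand. The share was 86.9% at COL2A1, 71.3% at COL9A3, where TCFL5 overlaps, and 65.4% at COL4A3, where MFF-DT overlaps. Opposite-strand counts of COL6A6 totalled 557 in clone A1, 363 in clone A4 and 481 in the vector libraries, so they were present in each group. Without regard to strand, these genes would be read as expressed at a level that their own strand does not show.

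ITGA11, the integrin chain that binds fibrillar collagen, is given here after its values were seen. It measured 5.98, 8.71 and 5.22 CPM (clone A1), 17.9, 17.5 and 22.8 CPM (clone A4) and 6.52, 13.8 and 9.93 CPM (vector). Clone A4 lay above both other groups in all 3 libraries. ITGA2 and GP6, from the same list of receptors, went the other way. ITGA2 measured 9.56 to 11.4 CPM (clone A4), 12.9 to 16.4 CPM (clone A1) and 16.0 to 23.1 CPM (vector). GP6 measured 4.46 to 5.69 CPM (clone A4), 6.23 to 11.2 CPM (clone A1) and 6.10 to 11.3 CPM (vector). Of all genes, 12.1% did not overlap between clone A4 and vector and 13.6% between the clones.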
